A study of Rattus norvegicus with 20 samples.

Results

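The cytosolic ribosomal protein genes are the genes for the protein subunits of the ribosome that translates messenger RNA in the cytoplasm. They were followed here in rat dorsal root ganglia, the clusters of sensory neuron cell bodies beside the spinal cord, after injury of the sciatic nerve. The members were the genes whose current symbol begins with Rpl or Rps and a digit, or with Rplp or Rpsa, and that had a probe set annotated to them alone. Kinases of the Rps6k family, genes named as like a ribosomal protein gene, and pseudogenes were left out. Rps9, whose gene ID has no entry in the current gene table used, was kept under the symbol of the platform annotation. Each gene was read by its brightest probe set over all arrays. The rule gave 37 genes, 26 of the large and 11 of the small ribosomal subunit, out of 4736 genes on the array.

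Total RNA of each sample was hybridised to 1 Affymetrix rat array, and 20 arrays fell into 8 groups. After chronic constriction injury (CCI, loose ties around the nerve) ganglia were taken at 14 days (n = 3) and 21 days (n = 3). After the Seltzer injury, which the labels describe as a sciatic nerve transection, 2 samples were taken at 14 days, 3 at 21 days and 2 at 50 days. Sham surgery was sampled likewise, with 2, 3 and 2 samples at these days. All ganglia came from the operated side, and strain, sex and age are not stated in the labels used here. Nothing in the labels ties the arrays of a group to different animals, and the p-values therefore measure only the spread between these arrays, which may be technical.

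Ribosomal proteins are made in near equal numbers for assembly into a large subunit, which forms peptide bonds, and a small subunit, which reads the message. Many of their messenger RNAs begin with a C followed by a run of pyrimidines, the 5′ terminal oligopyrimidine tract, through which growth signalling by mTOR controls their translation. In sensory neurons ribosomes lie mainly in the cell body, and some of them and their messenger RNAs are carried into axons.

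The promoter starts are shown because these genes are known for the tract that begins their messages. RefSeq promoters on the rat build GRCr8 were found for 33 of the 37 genes, Rpl27, Rpl30, Rps9 and Rps29 being without an entry. The windows run from 30 bases before the annotated start to its 15th base, and capitals mark a C at the start base followed by at least 4 bases that are each C or T. This was searched on the strand of the gene only.
Rplp0: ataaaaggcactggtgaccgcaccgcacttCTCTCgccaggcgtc
Rpl31: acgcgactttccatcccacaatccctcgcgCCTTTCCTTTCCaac
Rpl39: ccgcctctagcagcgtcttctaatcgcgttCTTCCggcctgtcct
Rps15: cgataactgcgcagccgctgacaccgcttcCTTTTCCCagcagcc
Rps16: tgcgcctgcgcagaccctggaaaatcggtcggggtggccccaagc
Rpl36: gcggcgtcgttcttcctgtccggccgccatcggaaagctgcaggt
Rpl5: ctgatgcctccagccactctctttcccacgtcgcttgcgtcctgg
Rps6: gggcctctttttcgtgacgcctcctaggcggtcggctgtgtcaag
The windows lie at chr12:46718376-46718420 (minus strand), chr9:49143081-49143125 (plus strand), chrX:121195882-121195926 (minus strand), chr7:10068101-10068145 (minus strand), chr1:92770628-92770672 (plus strand), chr9:1533750-1533794 (plus strand), chr14:1995211-1995255 (minus strand) and chr5:106420526-106420570 (minus strand), in that order. Rplp0, Rpl31, Rpl39 and Rps15 hold the tract at the annotated start, with its longest run, of 12 bases, in Rpl31. Rps16, Rpl36, Rpl5 and Rps6 do not hold it at that base. In all, 11 of 33 members (33.3%) held it, against 2.63% of the 33469 promoters in the table. Within 10 bases before to 15 bases from the start it was found in 21 members (63.6%), against 28.9% of all promoters. A match describes these letters at the annotated start and is not a measured start site.

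Of the 37 genes, 16 were above background on all 20 arrays, and 24 on all 18 arrays other than those of the Seltzer 50-day group. Background was the 95th percentile of the size of an array's negative values. It lay between 169 and 325 for 17 arrays, was 499 for CCI 21-day replicate 1, and reached 597 and 765 for the Seltzer 50-day group. On the Seltzer 50-day arrays 16 and 19 members were above it, and on CCI 21-day replicate 1 there were 29. The ratio of the 3′ to the middle GAPDH control, which rises as RNA is shorter, was 1.00 to 2.04 up to 21 days, 2.84 and 2.85 in sham ganglia at 50 days, and 5.10 and 8.89 in Seltzer ganglia at 50 days. All 8 sensory neuron markers were above background on at least 1 array.

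The probe sets with the strongest signal were those of Rps29, a zinc-binding protein of the small subunit (mean 7936 over the 20 arrays), Rpl23 (3614) and Rpl35 (3561), both of the large subunit. The weakest were those of Rpl18 (358), Rps10 (366) and Rpl14 (368). Brightness differs between probes, so these values do not rank the transcripts. The stalk proteins Rplp1 and Rplp2 had no probe set of their own and are not among the members.

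The median intensity of the 37 genes was lowest at 50 days and, before that, in the sham and Seltzer 14-day groups. It was 987 and 888 on the sham arrays at 14 days, 1168, 1496 and 1289 at 21 days and 733 and 728 at 50 days. On the Seltzer arrays it was 1198 and 993 at 14 days, 1356, 1448 and 1343 at 21 days and 709 and 605 at 50 days. On the CCI arrays it was 1514, 1473 and 1569 at 14 days and 1207, 1658 and 1534 at 21 days. The 21-day arrays lay above the 14-day arrays of the same surgery in the sham and Seltzer groups, and the 14-day and 21-day CCI arrays overlapped. In whole ganglia, fewer cells of a type and less RNA per cell cannot be told apart.

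**Figure D1:**
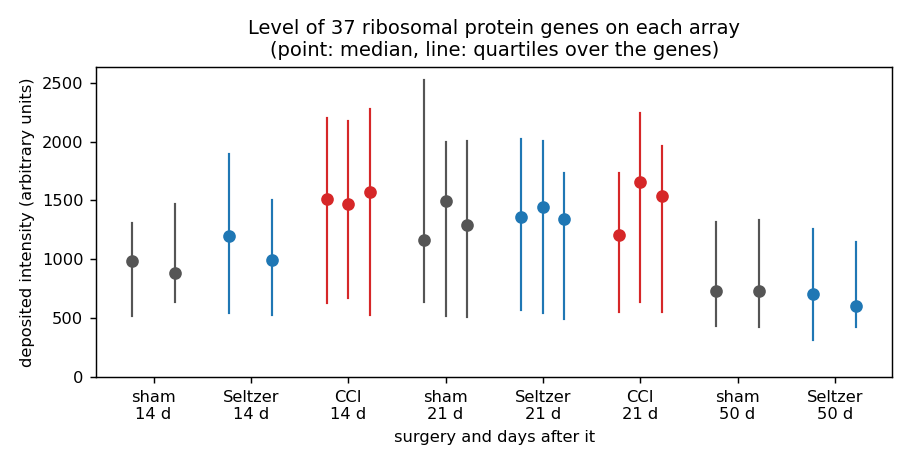
Median (point) and quartiles (line) of the deposited intensity of 37 ribosomal protein genes on each of the 20 arrays, grouped by surgery and days after it. The sham and Seltzer 14-day medians (888 to 1198) lie below the CCI 14-day medians (1473 to 1569), and the 50-day medians lie at or below 733.

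At 21 against 14 days, ribosomal protein genes rose more often than they fell in sham and Seltzer ganglia, and no member passed the test in CCI ganglia. Differences are of log2(intensity + 16), with values below 0 set to 0, and were tested with limma at an adjusted p under 0.05 over all 8740 probe sets. In sham ganglia 7 of 37 genes rose and 2 fell, against 1.19% and 1.38% of all probe sets. In Seltzer ganglia 6 rose and 2 fell, against 1.17% and 1.22%. In CCI ganglia limma called 0 of 37, against 0.366% of all probe sets, with 3 members at an unadjusted p under 0.05. The median difference over the members was 0.50 in sham, 0.23 in Seltzer and -0.05 in CCI ganglia, against 0.00, 0.00 and 0.04 over the 4736 genes. With arrays quantile normalised the sham median was 0.17 and the Seltzer median 0.06, and without sham 21-day replicate 1 the sham median was 0.24. The 3′ to middle GAPDH ratio was also lower at the later day in sham ganglia (1.74 to 1.90 at 14 and 1.00 to 1.32 at 21 days) and in Seltzer ganglia (1.74 to 2.04 at 14 and 1.22 to 1.60 at 21 days). In CCI ganglia it was 1.68 to 1.75 at 14 and 1.48 to 1.78 at 21 days, with overlap. Its part in the differences between 21 and 14 days was not tested.

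Without regard to a test, all 3 sham arrays at 21 days were above both at 14 days for 17 members, against 15.1% of all probe sets, and below both for 4, against 18.6%. The same held for Seltzer arrays in 15 members above (13.8% of all probe sets) and 8 below (18.9%). For CCI, all 3 arrays at 21 days were above all 3 at 14 days for 1 member, Rps29 (7.51% of all probe sets), and below for 4 (8.17%). The last were Rpl27, Rpl31, Rpl36 and Rps24.

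Averaged over the surgeries, 7 members rose and 2 fell from 14 to 21 days, against 1.97% and 2.43% of all probe sets. The large subunit gave 5 that rose and 1 that fell of 26 (median difference 0.22), and the small subunit 2 that rose and 1 that fell of 11 (median 0.10). The genes that rose were Rpl27, Rpl36, Rpl39, Rpl41, Rplp0, Rps10 and Rps16, and those that fell were Rpl5 and Rps6. Among these 9, the 3 single-surgery differences shared a sign for Rplp0, Rpl39, Rpl41 and Rpl5. The Rpl5 difference in CCI ganglia was smaller than its standard error. With quantile normalised arrays the split was 4 higher and 2 lower.

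Sham and Seltzer groups share no array, and their day differences are set side by side. The groups are not fully separate, since same-numbered sham and Seltzer arrays at 21 days deviated together from their group means (correlations of 0.299, 0.226 and 0.11 over probe sets). Replicate 1 of both was the highest array of its group for Rps29, at 16597 in sham and 12333 in Seltzer ganglia, and for Rpl35, at 6153 and 5562. Rpl27, Rpl36, Rplp0 and Rps16 rose in both, which is 57.1% of the 7 sham genes and 66.7% of the 6 Seltzer genes. Rpl5 and Rps6 fell in both, which is all of the 2 genes in each. Across the 37 genes the sham and Seltzer differences correlated (Pearson r = 0.86, Spearman rho = 0.80), and 32 had the same sign. Without replicate 1 of both 21-day groups, an alternative added after the data were seen, r was 0.86, rho 0.78, and 31 had the same sign. The CCI differences correlated with the sham differences at r = -0.06 (rho = -0.26, 13 of the same sign) and with the Seltzer differences at r = 0.04 (rho = -0.13, 14 of the same sign). These points are genes that share the same arrays, so the coefficients are a description. Those of the CCI differences were not computed without CCI 21-day replicate 1, where 29 of 37 members were above background.

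**Figure D2:**
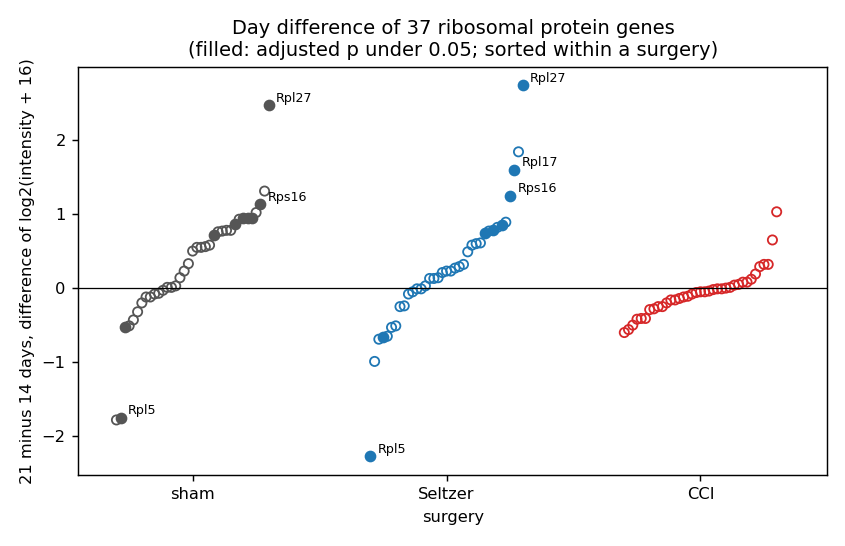
Difference between 21 and 14 days in log2(intensity + 16) for each of 37 ribosomal protein genes, sorted within each surgery, with filled points past adjusted p 0.05. Sham and Seltzer ganglia have 9 and 8 filled points, with Rpl27 at the top (2.47 and 2.74) and Rpl5 as the lowest filled point (-1.75 and -2.27, with 1 of 3 sham and 0 of 3 Seltzer arrays above background at 21 days), and CCI ganglia have none.

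Among the large subunit proteins the greatest rise was that of Rpl27. Its intensity was 309.8 and 379 in sham and 225 and 274 in Seltzer ganglia at 14 days. At 21 days it was 1770.5, 1994 and 2168 in sham and 1772, 2007 and 1509.6 in Seltzer ganglia. In CCI ganglia it was 2147, 2008 and 2273 at 14 days and 1207, 1658 and 1712 at 21 days. The sham and Seltzer 14-day arrays were thus far below all others up to 21 days, while the CCI 14-day arrays were above the CCI 21-day arrays. The day difference was 2.47 ± 0.19 (SE, adjusted p = 6e-06) in sham, 2.74 ± 0.19 (SE, adjusted p = 2.62e-06) in Seltzer and -0.50 ± 0.17 (SE, adjusted p = 0.503) in CCI ganglia (limma). A dimmer probe set of Rpl27 did not show this pattern: its mean was 499 ± 128 (SD, n = 2) at 14 and 420.2 ± 136 (SD, n = 3) at 21 days in sham, and 534 ± 99.9 (SD, n = 2) and 563 ± 187 (SD, n = 3) in Seltzer ganglia.

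Rpl36, also of the large subunit, read 331 and 348 in sham and 419.7 and 359 in Seltzer ganglia at 14 days. At 21 days it read 677, 717 and 619 in sham and 739.5, 660.5 and 584 in Seltzer ganglia. CCI ganglia read 766, 715 and 745 at 14 days and 494, 708 and 642 at 21 days. The 14-day sham and Seltzer arrays did not overlap their 21-day arrays, and in CCI ganglia all 14-day values were the higher ones. The difference was 0.95 ± 0.15 (SE, adjusted p = 0.00348) in sham, 0.74 ± 0.15 (SE, adjusted p = 0.0206) in Seltzer and -0.28 ± 0.14 (SE, adjusted p = 0.724) in CCI ganglia (limma). The Seltzer call was lost without Seltzer 14-day replicate 1 (0.85, adjusted p = 0.0564), 14-day replicate 2 (0.63, 0.244) or 21-day replicate 1 (0.66, 0.0831), and when arrays were centred on bright probe sets (0.66, 0.0786) or quantile normalised (0.71, 0.104).

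Rplp0 is the base of the ribosomal stalk, on which Rplp1 and Rplp2 sit and which recruits elongation factors. Sham arrays read 2498 and 1935 at 14 and 3879, 3492 and 3509.8 at 21 days. Seltzer arrays read 2536 and 2243 at 14 and 4792, 3511 and 4736 at 21 days. CCI arrays read 3556, 3148 and 3689 at 14 and 3622, 4675 and 4732 at 21 days. The days did not overlap in sham and Seltzer ganglia, and in CCI ganglia they overlapped through 21-day replicate 1 alone. The difference averaged over surgeries was 0.63 ± 0.09 (SE, adjusted p = 0.000788), and this call held under all 31 alternatives. Within surgeries it was 0.72 ± 0.16 (SE, adjusted p = 0.0255) in sham, 0.85 ± 0.16 (SE, adjusted p = 0.00983) in Seltzer and 0.32 ± 0.14 (SE, adjusted p = 0.697) in CCI ganglia (limma). The sham call was lost without sham 14-day replicate 2 (0.53, adjusted p = 0.289) or 21-day replicate 1 (0.67, 0.0831), 2 (0.74, 0.0513) or 3 (0.74, 0.0523), and the Seltzer call without Seltzer 14-day replicate 2 (0.76, 0.129).

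Rpl39, a small protein that lines the exit tunnel for the nascent chain, rose by 0.50 ± 0.09 (SE, adjusted p = 0.00515) averaged over surgeries. Rpl41, the smallest ribosomal protein, rose by 1.13 ± 0.29 (SE, adjusted p = 0.0456), but its call was lost in 23 of 31 alternatives, among them 17 of the 20 in which 1 array was left out (adjusted p 0.00756 to 0.134). Rpl41 read 552, 1658 and 1597 on the CCI 21-day arrays and 400.1, 773 and 532 on the CCI 14-day arrays. The first of the 21-day values lay within the 14-day range. Rps10 rose by 0.51 ± 0.12 (SE, adjusted p = 0.0331), and its call was lost when any of 12 arrays was left out (adjusted p 0.0066 to 0.0915).

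Single-surgery calls beyond those shared were Rpl13a, Rpl27a and Rps10 in sham ganglia and Rpl17 and Rpl39 in Seltzer ganglia. Rpl13a, known for silencing translation when released from the ribosome, rose by 0.94 ± 0.23 (SE, adjusted p = 0.0495), Rpl27a by 0.87 ± 0.21 (SE, adjusted p = 0.0488) and Rps10 by 0.95 ± 0.22 (SE, adjusted p = 0.0375) in sham ganglia. These 3 calls were lost when any of 17, 15 and 11 of the 20 arrays was left out, with adjusted p up to 0.456, 0.241 and 0.227. Rpl17 read 148 and 102 at 14 and 306, 472 and 462 at 21 days in Seltzer ganglia. Both 14-day values were under background, so the difference of at least 1.96-fold is a bound, with limma's adjusted p = 0.0271. The Rpl17 call was lost without Seltzer 14-day replicate 1 (1.83, adjusted p = 0.0703), 14-day replicate 2 (1.37, 0.279), 21-day replicate 2 (1.49, 0.0634) or 21-day replicate 3 (1.51, 0.0923). Rpl39 rose by 0.78 ± 0.16 (SE, adjusted p = 0.019) in Seltzer ganglia, and was not called without Seltzer 14-day replicate 1 (0.82, 0.0903), 14-day replicate 2 (0.73, 0.175) or 21-day replicate 1 (0.67, 0.0732).

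Leaving out sham 14-day replicate 1 or 2 brought the sham count from 9 to 4 or 5, and leaving out sham 21-day replicate 1 or 2 to 5 or 4. Leaving out either Seltzer 14-day array brought the Seltzer count from 8 to 4. With arrays centred on their median, the calls left were Rpl27 and Rpl5 in sham ganglia, and Rpl27, Rps16 and Rpl5 in Seltzer ganglia. With no other groups in the fit they were Rpl27, Rpl36 and Rpl5 in sham ganglia and Rpl27 in Seltzer ganglia, and with the dimmest probe sets left out there were 4 in each. With arrays centred on bright probe sets the sham split was 4 higher and 2 lower, and with quantile normalised arrays the Seltzer split was 4 higher and 2 lower.

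Among the small subunit proteins Rps16, which lies near the decoding site, showed the clearest rise. It read 1004 and 814 in sham and 917 and 909 in Seltzer ganglia at 14 days. At 21 days it read 1696, 2262 and 2077 in sham and 2025, 1993 and 2594 in Seltzer ganglia. CCI arrays read 2198, 2172 and 2274 at 14 and 1633, 2246 and 2304 at 21 days. All 4 low arrays were sham or Seltzer arrays at 14 days, and the CCI arrays of the 2 days overlapped. The difference was 1.13 ± 0.16 (SE, adjusted p = 0.00142) in sham, 1.25 ± 0.16 (SE, adjusted p = 0.000589) in Seltzer and -0.12 ± 0.14 (SE, adjusted p = 0.911) in CCI ganglia (limma).

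The genes that fell were Rpl5 and Rps6. Rpl5 carries the smallest ribosomal RNA into the large subunit and, when free, binds Mdm2, which restrains p53. It read 788 and 639.9 in sham and 756 and 628 in Seltzer ganglia at 14 days. At 21 days it read 213, 197 and 191 in sham and 86.2, 199.5 and 126 in Seltzer ganglia. CCI arrays read 356, 374 and 249.6 at 14 and 294, 449 and 239.5 at 21 days, so that they overlapped between days and lay below the sham and Seltzer arrays at 14 days. The difference was -1.75 ± 0.29 (SE, adjusted p = 0.00396) in sham, -2.27 ± 0.29 (SE, adjusted p = 0.000555) in Seltzer and -0.02 ± 0.26 (SE, adjusted p = 1) in CCI ganglia (limma). At 21 days 1 of 3 sham and 0 of 3 Seltzer arrays were above background, so in Seltzer ganglia the 14-day level was at least 2.58-fold higher. Without sham 14-day replicate 1 the sham difference was -1.60 (adjusted p = 0.0594).

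Rps6, the small subunit protein that S6 kinases phosphorylate under mTOR, read 2762 and 2581 at 14 and 1729, 1757 and 2080.1 at 21 days in sham ganglia. Seltzer ganglia read 3930.2 and 3219 at 14 and 2367, 2254 and 2103 at 21 days. CCI ganglia read 2343, 2277 and 2612 at 14 and 2405, 2415 and 2588 at 21 days. The 14-day arrays were all above the 21-day arrays in sham and Seltzer ganglia, and the days overlapped in CCI ganglia. The difference was -0.53 ± 0.11 (SE, adjusted p = 0.0206) in sham, -0.66 ± 0.11 (SE, adjusted p = 0.00493) in Seltzer and 0.04 ± 0.10 (SE, adjusted p = 1) in CCI ganglia (limma). The sham call was lost without sham 14-day replicate 1 (-0.48, adjusted p = 0.18) or 2 (-0.57, 0.0799) or 21-day replicate 1 (-0.48, 0.0721) or 2 (-0.49, 0.0649), and the Seltzer call without Seltzer 14-day replicate 1 (-0.52, 0.0752). With its probe sets taken by their median the differences were -0.12 in sham (0.927) and -0.57 in Seltzer ganglia (0.239).

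**Figure D3:**
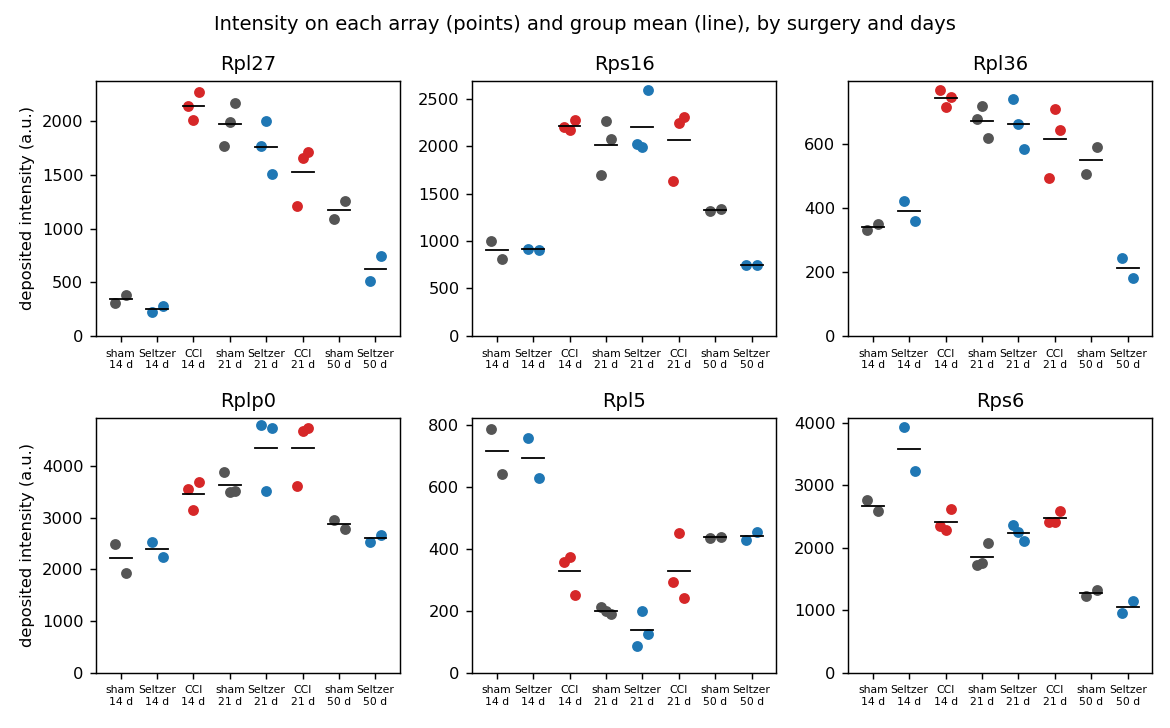
Deposited intensity of 6 ribosomal protein genes on each array (points) with the group mean (line), by surgery and days, each axis starting at 0. In Rpl27, Rps16, Rpl36 and Rplp0 the sham and Seltzer 14-day arrays are the lowest up to 21 days, and in Rpl5 and Rps6 they include the highest.

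Of the other genes that were always reported, Rpsa, the small subunit protein also known as a laminin receptor, differed by 0.55 ± 0.28 (SE, adjusted p = 0.368) between the days averaged over surgeries. Without CCI 21-day replicate 1, where it read 374 against 1815 and 1383 on the other CCI 21-day arrays, the difference was 0.77 (adjusted p = 0.0132). Rpl3, which shapes the peptidyl transferase centre, differed by -0.04 ± 0.16 (SE, adjusted p = 0.987). Rpl26, which lies near the exit of the nascent-chain tunnel, differed by 0.17 ± 0.11 (SE, adjusted p = 0.493). Without sham 21-day replicate 1 its difference was 0.27 (adjusted p = 0.0153).

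CCI ganglia at 14 days stood above sham ganglia of the same day. There 7 of 37 members were higher and 0 lower, against 1.35% and 1.43% of all probe sets, with a median difference of 0.47 against 0.00 over all genes. All 3 CCI arrays were above both sham arrays for 24 members (18.1% of all probe sets) and below for 4 (23.3%). This comparison shares its sham arrays with the sham day difference. The called genes were Rpl27 at 2.59 ± 0.19 (SE, adjusted p = 2.83e-06), Rps16 at 1.28 ± 0.16 (SE, adjusted p = 0.000483), Rpl36 at 1.09 ± 0.15 (SE, adjusted p = 0.00125), Rpl26, Rpl39, Rplp0 and Rpl17 (limma). The calls of the first 3 held under all 31 alternatives, but the other probe set of Rpl27 differed by only 0.35 (adjusted p = 0.95, limma). The number called was 4 without CCI 14-day replicate 1, 2 or 3 or sham 14-day replicate 2, and 11 without CCI 21-day replicate 1, which is not in the comparison and enters through the shared spread. With arrays centred on their median it was 3.

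Rpl26 read 987 and 1124 in sham and 2135, 2368 and 1976 in CCI ganglia at 14 days. The groups did not overlap, and the difference was 1.02 ± 0.20 (SE, adjusted p = 0.0113) (limma). Its call was lost without CCI 14-day replicate 2 (0.95, adjusted p = 0.0516) or sham 14-day replicate 1 (0.93, 0.128), and with the median over its probe sets (0.85, 0.595). Rpl39 read 1974 and 1550 in sham and 3123, 2629.6 and 3441 in CCI ganglia, again without overlap, with a difference of 0.79 ± 0.16 (SE, adjusted p = 0.0153). Its call was lost without CCI 14-day replicate 1 (0.78, 0.0565) or 3 (0.71, 0.0693) or sham 14-day replicate 2 (0.62, 0.194). Rplp0 was higher by 0.65 ± 0.16 (SE, adjusted p = 0.0443), a call lost when any of 14 arrays was left out (adjusted p up to 0.407). Rpl17 was at least 2.11-fold higher, since both sham values were under background, with an adjusted p of 0.0473 that was lost when any of 15 arrays was left out (up to 0.273).

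The CCI 14-day arrays also differed from the Seltzer arrays of that day, a comparison added after the data were seen. Here 4 members were higher and 1 lower, against 0.858% and 0.892% of all probe sets, with a median of 0.35. The arrays did not overlap for 22 members that were higher (16.7% of all probe sets) and 5 that were lower (22.8%). Rpl27 was higher by 3.03 ± 0.19 (SE, adjusted p = 1.06e-06), Rpl17 by at least 2.46-fold (adjusted p = 0.0101), Rps16 by 1.26 ± 0.16 (SE, adjusted p = 0.000563) and Rpl36 by 0.91 ± 0.15 (SE, adjusted p = 0.00692), and Rps6 was lower, at -0.56 ± 0.11 (SE, adjusted p = 0.0195) (limma). Leaving out Seltzer 14-day replicate 2 left 3 calls, those of Rpl17 (1.70, adjusted p = 0.137) and Rpl36 (0.80, 0.108) being lost. The Rps6 call was lost without CCI 14-day replicate 1 (-0.54, 0.0736) or 2 (-0.52, 0.0811) or Seltzer 14-day replicate 1 (-0.42, 0.234), and with its probe sets taken by their median (-0.19, 1.0). Its other probe set differed by 0.18 (1.0), and that of Rpl27 by 0.24, which was not called.

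Set against the 21-day groups, the CCI 14-day levels lay close. The median size of the difference between group means over the 37 genes was 0.51 from sham and 0.50 from Seltzer ganglia at 14 days. It was 0.18 from sham, 0.16 from CCI and 0.24 from Seltzer ganglia at 21 days. Sham and Seltzer ganglia at 14 days differed by 0.16. Over all 4736 genes the same 5 distances of the CCI 14-day group were 0.32, 0.30, 0.28, 0.31 and 0.28.

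**Figure D4:**
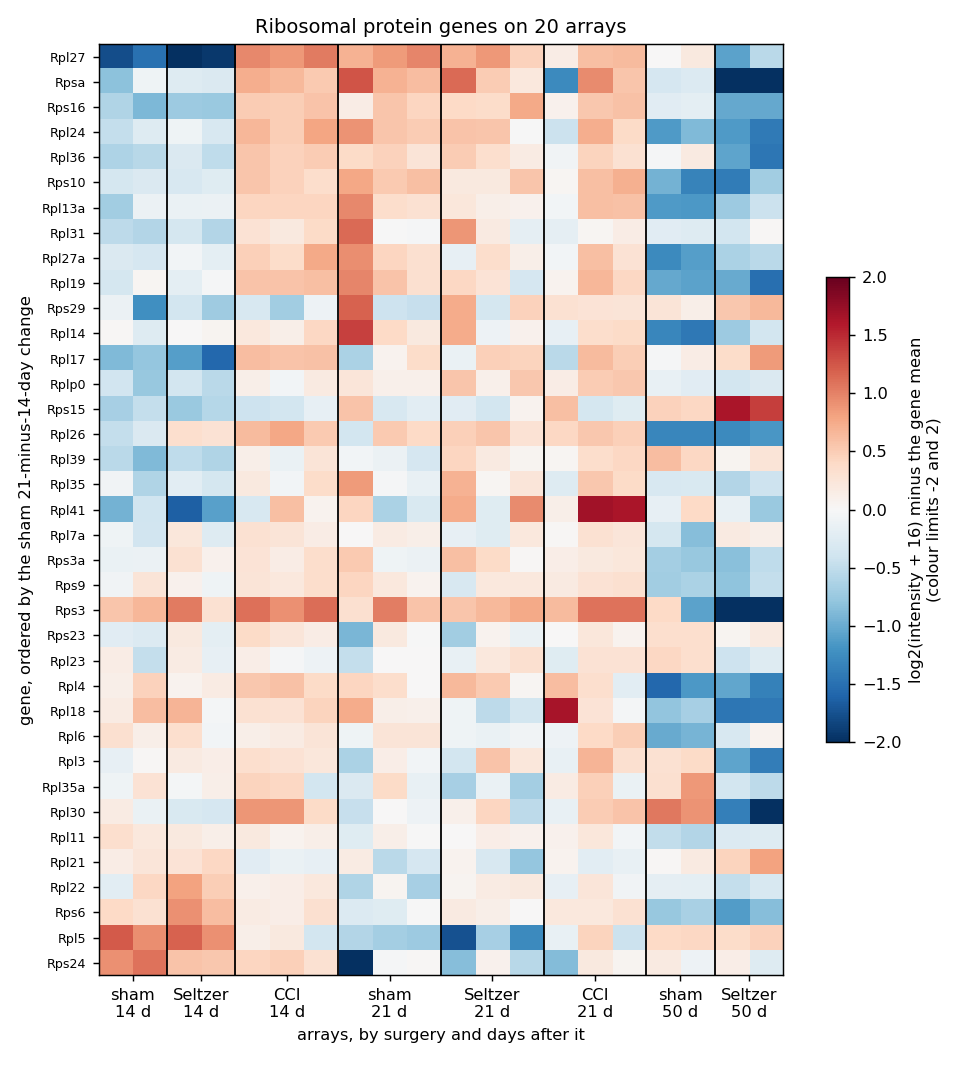
Log2(intensity + 16) of 37 ribosomal protein genes on 20 arrays, each minus the mean of its gene, with genes ordered by the sham 21-minus-14-day difference and colours limited to -2 and 2. The sham and Seltzer 14-day columns are mostly blue in the upper rows, where the CCI 14-day and the 21-day columns are mostly red, and the order is turned in the lowest rows, Rps24, Rpl5 and Rps6.

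At 21 days no member was called in CCI against sham ganglia, where limma called 0.927% of all probe sets and 5 members had an unadjusted p under 0.05. The median difference was 0.13, and -0.04 with arrays centred on their median. All 3 CCI arrays were above all 3 sham arrays for Rpl39, Rpl5 and Rps6 (6.57% of all probe sets) and below for Rpl27 (7.68%). The test of whether the CCI effect differed between 21 and 14 days, also added after the data were seen, called 1 member higher and 3 lower, against 0.915% and 0.881% of all probe sets. Rpl27 differed by -2.97 ± 0.25 (SE, adjusted p = 2.02e-05), Rps16 by -1.25 ± 0.21 (SE, adjusted p = 0.00719), Rpl36 by -1.23 ± 0.21 (SE, adjusted p = 0.00613) and Rpl5 by 1.73 ± 0.39 (SE, adjusted p = 0.0409). The Rpl5 call was lost when any of 17 of the 20 arrays was left out (adjusted p up to 0.183). No call was lost by leaving out 1 array for Rpl27, Rps16 or Rpl36, and with arrays centred on their median Rps16 (-1.54, 0.0895) and Rpl36 (-1.52, 0.0708) were not called. Without the dimmest probe sets both stood at an adjusted p of 0.0624.

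No member passed the test between Seltzer and sham ganglia at 14 or 21 days. At 14 days limma called 0 of 37 members, against 0.206% of all probe sets, with 3 at an unadjusted p under 0.05 and a median difference of 0.09. Both Seltzer arrays were above both sham arrays for 9 members (17.9% of all probe sets) and below for 6 (17.7%). At 21 days it called 0, against 0.378%, with 6 at an unadjusted p under 0.05 and a median of -0.01. The arrays did not overlap for 3 members that were higher (4.97% of all probe sets), Rpl22, Rpl39 and Rps6, and 2 that were lower (5.46%), Rpl13a and Rpl18. Without sham 21-day replicate 1 there was 1 call at 14 days. The Seltzer effect at 21 minus 14 days gave 0 calls, against 0.149% of all probe sets, and 0 members with an unadjusted p under 0.05.

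Averaged over both injuries and both days, 2 members were higher than in sham ganglia and 0 lower, against 0.641% and 0.469% of all probe sets, and the median was 0.16. Rpl26 was higher by 0.57 ± 0.12 (SE, adjusted p = 0.0384) and Rpl39 by 0.45 ± 0.10 (SE, adjusted p = 0.0467) (limma). With the replicate number as a block neither was called, at adjusted p = 0.0581 and 0.0644, with arrays centred on bright probe sets neither was called, at 0.0772 and 0.0772, and without the Seltzer 50-day arrays neither was called, at 0.0532 and 0.0562. Leaving out any of 15 arrays ended the Rpl26 call and any of 16 the Rpl39 call, with adjusted p up to 0.191 and 0.284. The adjusted p was 0.365 for Rpl26 and 0.5 for Rpl39 with arrays centred on their median. With its probe sets taken by their median Rpl26 was at 0.04 (1.0), and its other probe set was at -0.48 ± 0.53 (0.99). The others always reported were Rplp0 at 0.32 ± 0.09 (SE, adjusted p = 0.201), Rpl27 at 0.40 ± 0.11 (SE, adjusted p = 0.175), Rps16 at 0.36 ± 0.10 (SE, adjusted p = 0.135), Rps6 at 0.24 ± 0.07 (SE, adjusted p = 0.168), Rpl3 at 0.34 ± 0.17 (SE, adjusted p = 0.691) and Rpsa at 0.06 ± 0.30 (SE, adjusted p = 1). Without CCI 21-day replicate 1 Rps16 was called (0.40, adjusted p = 0.0266).

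The injury effect differed between 21 and 14 days for 0 members upward and 1 downward, against 0.458% and 0.332% of all probe sets. This was Rpl27, at -1.35 ± 0.23 (SE, adjusted p = 0.0122), and its call was lost without sham 14-day replicate 1 (-1.21, adjusted p = 0.0922), with arrays centred on their median (-1.52, 0.141), with the dimmest probe sets left out (-1.35, 0.066) and with the median over its probe sets (-0.45, 0.814). Without sham 21-day replicate 1 there were 2 calls. CCI against Seltzer ganglia over both days gave 2 members higher and 0 lower, against 0.481% and 0.446%. They were Rpl27 at 1.41 ± 0.13 (SE, adjusted p = 7.22e-05) and Rps16 at 0.58 ± 0.11 (SE, adjusted p = 0.0186) (limma). The other probe set of Rpl27 differed by 0.40 (adjusted p = 0.714, limma). The Rps16 call was lost without CCI 14-day replicate 1 (0.58, 0.0503) or 3 (0.57, 0.0538), Seltzer 14-day replicate 1 (0.58, 0.0573) or 2 (0.58, 0.0769) or Seltzer 21-day replicate 1 (0.55, 0.0504). Without CCI 21-day replicate 1 there were 5 calls, and with quantile normalised arrays 4 higher and 1 lower.

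Sham ganglia at 50 days read lower than at 21 days for many of these genes. Of 37 members 16 were lower and 2 higher, against 4.82% and 2.64% of all probe sets, with a median difference of -0.53 against 0.00 over all genes. The large subunit gave 11 lower and 2 higher of 26 and the small subunit 5 lower and 0 higher of 11. Both 50-day arrays were below all 21-day arrays for 22 members (22.3% of all probe sets) and above for 6 (19.9%). On the same arrays the 3′ to middle GAPDH ratio was 2.84 and 2.85 at 50 days and 1.00 to 1.32 at 21 days. The sum of 7 skeletal muscle markers was 887 to 1179 at 50 and 4863 to 5306 at 21 days, and 3 of the 7 fell and 0 rose (Acta1 -2.45 ± 0.21, Myh4 -2.28 ± 0.41 and Ckm -4.71 ± 0.57). Of 4 Schwann cell markers only Mbp was called lower (-2.88 ± 0.23), with a median of -0.22 over the 4. Of 4 fibroblast markers only Col3a1 was called lower (-1.52 ± 0.22), with a median of -0.95. Of 8 sensory neuron markers 0 were called. The part of these values in the ribosomal protein differences was not tested.

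The 6 lowest fitted differences were those of Rpl27a, Rpl13a, Rpl19 and Rpl24, measured above background on all arrays of both days, and of Rpl14 and Rps10, which have only a bound and no place in that order. Of these Rps10 is a small subunit protein. Rpl14 read 894, 448 and 386 at 21 and 127 and 115 at 50 days, and Rps10 read 579, 488 and 514 and 165 and 123. Their 50-day values were under background, so the 21-day level was at least 1.76-fold higher for Rpl14 (adjusted p = 0.00159) and at least 1.72-fold higher for Rps10 (0.000263). Rpl27a read 3043, 2164 and 2001 at 21 and 653 and 732 at 50 days, with a difference of -1.75 ± 0.21 (SE, adjusted p = 0.000211). Rpl13a differed by -1.68 ± 0.23 (SE, adjusted p = 0.000533), Rpl19 by -1.67 ± 0.25 (SE, adjusted p = 0.000999) and Rpl24 by -1.66 ± 0.28 (SE, adjusted p = 0.00261) (limma). With its probe sets taken by their median Rpl13a was not called (-0.90, 0.102), and its other probe set differed by -0.12 (1.0). None of these 6 calls was lost by leaving out 1 array, although without sham 50-day replicate 2 the number of calls was 11 rather than 18, and with only the 2 groups in the fit it was 4.

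The 2 genes that rose were Rpl5 and Rpl39. Rpl39 read 2779, 2653 and 2293 at 21 and 4429.6 and 3835 at 50 days, without overlap, a difference of 0.68 ± 0.16 (SE, adjusted p = 0.0198). Its call was lost without sham 21-day replicate 3 (0.60, adjusted p = 0.0656), sham 50-day replicate 1 (0.58, 0.2) or 2 (0.78, 0.056). Rpl5 was above background on 1 of 3 arrays at 21 days, so the size of its rise is less certain. It read 434 and 439 at 50 days, a fitted difference of 1.07 ± 0.29 (SE, adjusted p = 0.0412) that was lost when any of 14 arrays was left out (up to 0.198). With arrays centred on their median neither was called, and the split was 0 higher and 8 lower.

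**Figure D5:**
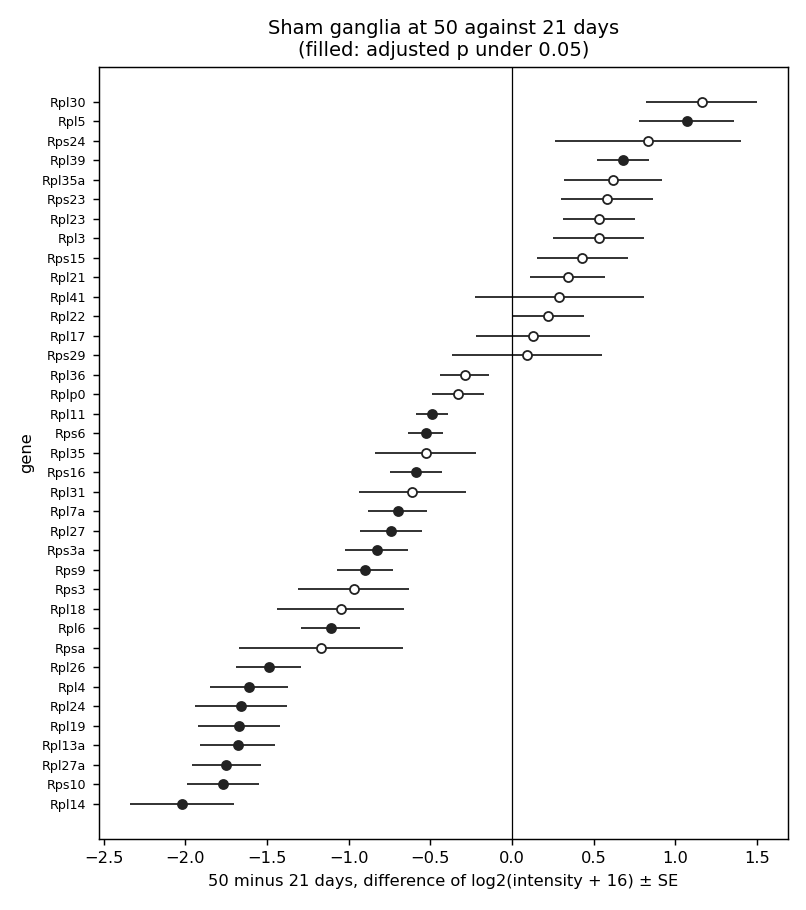
Difference between 50 and 21 days in sham ganglia for each of 37 ribosomal protein genes, in log2(intensity + 16) with its standard error from limma, filled where the adjusted p was under 0.05. Of the filled points 16 lie below 0, with Rpl27a at -1.75 the lowest above background on all arrays of both days, and 2 above it, Rpl39 at 0.68 and Rpl5. The filled points of Rpl14, Rps10 and Rpl4 and the open point of Rpl18 rest on 50-day values under background. That of Rpl6 rests on 50-day values of which 1 of 2 was above it, and that of Rpl5 on 21-day values of which 1 of 3 was.

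In Seltzer against sham ganglia at 50 days 3 members were higher and 8 lower, against 8.72% and 7.20% of all probe sets. The arrays did not overlap for 11 members that were higher (33.4%) and 17 that were lower (37.2%). The Seltzer arrays of that day had backgrounds of 597 and 765 and GAPDH ratios of 5.10 and 8.89, whose part in these values was not tested. The muscle marker sum was 887 to 1179 in sham and 3703 to 4714 in Seltzer ganglia, with 4 of 7 markers higher and 0 lower (Acta1 2.62 ± 0.23, Myh4 2.40 ± 0.45, Ckm 2.83 ± 0.62 and Tnni2 2.33 ± 0.66). Of 8 sensory neuron markers Snap25 was higher and Prph (-0.97 ± 0.25) and Uchl1 (-1.17 ± 0.22) were lower. Of 4 macrophage markers only Ctss was called higher, with a median of 0.04 over the 4. Of 2 blood markers Alas2 was called higher, with a median of 0.34. Lpl, 1 of 4 fat markers, and Cd3g, 1 of 3 T cell markers, were called higher as well, though on no array above background. The part of these markers was not tested. Rps3, a small subunit protein at the entry of the message, read 1213 and 428 in sham and -429 and -429.7 in Seltzer ganglia. The Seltzer values were below 0 and entered the fit as 0. On average its sham level was at least 1.07-fold higher, though the sham value of 428 lay under both Seltzer backgrounds. The adjusted p of 9.73e-07 (limma) belongs to a fitted difference of -5.53, which rests on the values raised to 0. Its other probe set was called the opposite way, at 0.75 (adjusted p = 0.00446, limma). That probe set read 296 ± 49.5 (SD, n = 2) in sham and 505 ± 53.1 (SD, n = 2) in Seltzer ganglia. Rpl30 and Rpl36 were under background on both Seltzer arrays, at levels where no fold can be given. Rpsa was at least 1.11-fold (adjusted p = 0.032), Rpl35a at least 1.34-fold (0.0455) and Rpl27 at least 1.72-fold (0.0105) higher in sham ganglia. With probe sets taken by their median Rpsa (-0.90, adjusted p = 0.124) and Rpl27 (-0.23, 0.507) were not called, and their other probe sets differed by 0.12 (0.913) and 0.44 (0.539). Rpl3 differed by -1.56 ± 0.31 (SE, adjusted p = 0.00461) and Rps16 by -0.82 ± 0.18 (SE, adjusted p = 0.00781) (limma). Rps16 was above background on 1 of 2 Seltzer arrays, so the size of its difference is less certain.

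The members that read higher in Seltzer ganglia at 50 days were Rps15 (1.06 ± 0.31 (SE, adjusted p = 0.0339)), Rpl6 (0.84 ± 0.19 (SE, adjusted p = 0.0117)) and Rpl7a (0.75 ± 0.20 (SE, adjusted p = 0.0226)). Rpl6 was above background on 0 of 2 Seltzer and 1 of 2 sham arrays, so its call has no measured size, while Rps15 and Rpl7a were above it on all 4. With a gene's probe sets taken by their median Rps15 was at -0.57 and Rpl6 at -0.13. Leaving out Seltzer 50-day replicate 1 or 2 left 6 calls of 11, and leaving out sham 50-day replicate 1 or 2 left 7 or 4. Rps15 was not called without any 1 of these 4 arrays (adjusted p 0.0815 to 0.15), nor was Rpsa (0.101 to 0.134). Rpl6 was not called without Seltzer 50-day replicate 1 (0.64, 0.105) or sham 50-day replicate 1 (0.80, 0.0659) or 2 (0.88, 0.0531), nor Rpl7a without Seltzer 50-day replicate 1 (0.79, 0.0759) or 2 (0.72, 0.0951) or sham 50-day replicate 2 (0.50, 0.215). Rpl35a was not called without any of 13 arrays (up to 0.295), Rpl27 without Seltzer 50-day replicate 2 (-0.65, 0.0937) or sham 50-day replicate 2 (-0.81, 0.0841), and Rps16 without sham 50-day replicate 2 (-0.80, 0.0506). With arrays centred on their median the split was 0 higher and 8 lower, with quantile normalisation 1 and 9, and with centring on bright probe sets 4 and 7.

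Other probe sets bear on the same genes. Of the 37 genes 15 had more than 1, which gave 18 further probe sets, and in the day difference averaged over surgeries 11 of the 18 had the sign of the member's main probe set. Of the further probe sets of called members the sign was that of the main one in 1 of 3 in sham and 2 of 2 in Seltzer ganglia between 21 and 14 days, and in 2 of 2 in CCI against sham at 14 days. In each of these comparisons 0 of them were called with that sign. Of all 18 further probe sets 4, 3 and 4 were called in the same comparisons. Among them 1 of Rpl21, named after its values were seen, went against the main one. It differed by 0.93 (adjusted p = 0.00253, limma) in sham ganglia, where the main one was at -0.43. In CCI against sham at 14 days it differed by 1.27 (0.000175), with the main one at -0.37. The further Rpl27 probe set differed by 0.03 in Seltzer ganglia (main one 2.74) and by 0.35 in CCI against sham (2.59). The sign was shared in 6 of 7 in sham ganglia between 50 and 21 days (5 called), 1 of 7 in Seltzer against sham at 50 days (1 called) and 0 of 1 in the injury comparison. Some of these further probe sets, named after their values were seen, were lower in sham and Seltzer ganglia at 14 days than in the other groups up to 21 days. For Rps29 the second probe set read 1098 ± 105 (SD, n = 2) in sham and 1276 ± 253 (SD, n = 2) in Seltzer ganglia at 14 days. It read 4008 ± 645 (SD, n = 3) in CCI ganglia at 14 days, and at 21 days 4079 ± 548 in sham, 3938 ± 169 in Seltzer and 4618 ± 1073 in CCI ganglia (SD, n = 3 each). A second probe set of Rps15 read 398 ± 49.7 (SD, n = 2) in sham and 1170 ± 17.6 (SD, n = 3) in CCI ganglia at 14 days. The main probe sets differed between 21 and 14 days in sham ganglia by 0.78 for Rps29 and 0.58 for Rps15, and neither was called.

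A further 35 probe sets were annotated to a ribosomal protein gene together with its copies, and so name no single gene. In sham ganglia 8 of them were higher and 0 lower at 21 than at 14 days (median 0.68), against 1.19% and 1.38% of all probe sets. In Seltzer ganglia 4 were higher and 0 lower (median 0.26), against 1.17% and 1.22%. In CCI ganglia 0 were called (median -0.23), against 0.366%. In CCI against sham ganglia at 14 days 9 were higher and 0 lower, against 1.35% and 1.43%, and all 35 differences were above 0 (median 0.72). At 50 against 21 days in sham ganglia 0 were higher and 18 lower (median -0.97), against 2.64% and 4.82%. In Seltzer against sham ganglia at 50 days 0 were higher and 13 lower (median -0.44), against 8.72% and 7.20%. In the CCI effect at 21 minus 14 days 0 were higher and 6 lower (median -0.94), against 0.915% and 0.881%. Ribosomal protein genes have many processed copies in the genome, so probe sets of the members may also read transcripts of copies.

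By promoter start, the 11 members with the tract at the annotated base had a median difference of 0.40 between 21 and 14 days averaged over surgeries. Of them 2 were higher and 0 lower, against 1.97% and 2.43% of all probe sets. The 22 without it had a median of 0.04, with 4 higher and 2 lower. Some of the 22 held it within the wider window, in which 21 of 33 members did. The difference between the 2 sets was not tested. In CCI against sham ganglia at 14 days the medians were 0.50 and 0.45, with 3 higher and 0 lower in each, against 1.35% and 1.43% of all probe sets. Rplp0 and Rpl39 are printed above with the tract, and Rps16 and Rpl36, which rose as well, without it.

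Few genes that work with the ribosome were called in the day difference averaged over surgeries. Of 5 translation elongation genes 0 were called (median 0.17), and of 16 initiation genes 1 fell (median -0.13), Eif5, a GTPase-activating factor of start-site selection, at -0.72 ± 0.17 (adjusted p = 0.0335, limma). Of 5 other genes whose messages carry the tract or whose products bind ribosomes 1 rose (median 0.03), Rack1, a scaffold on the small subunit, at 0.59 ± 0.13 (adjusted p = 0.0187). Rack1 was also higher at 21 than at 14 days in sham ganglia (1.22 ± 0.23, adjusted p = 0.0102) and in CCI than in sham ganglia at 14 days (1.42 ± 0.23, adjusted p = 0.00351). Of 10 ribosome assembly genes and 8 growth signalling genes 0 were called. Of 14 mitochondrial ribosomal protein genes 1 rose, Mrpl52, by 0.43 ± 0.09 (adjusted p = 0.0106), and 11 were never above background. In the injury comparison averaged over days 0 genes of these 6 lists were called.

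Marker genes of other tissues moved between the groups too. The summed intensity of 7 skeletal muscle markers was 4699 to 5483 in sham, 6709 to 6994 in Seltzer and 10543 to 11904 in CCI ganglia at 14 days, and 4863 to 5306, 3192 to 3861 and 1197 to 2039 at 21 days. In the day difference averaged over surgeries 0 muscle markers rose and 5 fell, while the sham sums of the 2 days overlapped. Of 8 sensory neuron markers 3 rose (Nefh 0.96 ± 0.22, Uchl1 0.70 ± 0.11 and Prph 0.54 ± 0.13, adjusted p = 0.0294, 0.00263 and 0.0341), and 0 fell. Of 4 Schwann cell markers Pmp22 rose, by 0.77 ± 0.20 (adjusted p = 0.0476). Of 4 macrophage markers Cd74 fell, by -0.78 ± 0.11 (adjusted p = 0.0013), and in the injury comparison Cd74 (1.57 ± 0.12), Ctss (1.25 ± 0.12) and Lyz2 (1.03 ± 0.19) rose, with adjusted p = 1.57e-05, 0.000138 and 0.0193. The macrophage sum was 1759 to 2091 in sham, 3254 to 4330 in Seltzer and 4115 to 5128 in CCI ganglia at 14 days. The satellite glia sum was 2969 to 4527 in sham, 3751 to 4096 in Seltzer and 4924 to 6712 in CCI ganglia at 14 days, and 5298 to 26257, 5641 to 22572 and 8785 to 11565 at 21 days, without overlap of the days within a surgery. A sum weighs the brightest marker most. The median day difference over the 4 markers was 0.55 in sham, 0.67 in Seltzer and -0.12 in CCI ganglia, with 0 called in each. Kcnj10 was above background on no array. Satellite glia, blood and fibroblast markers gave 0 calls in both comparisons, and all measured markers of fat, endothelium and T cells were at or below background on every array. The part of these markers in the ribosomal protein differences was not tested.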

How the data were processed

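Intensity values of 8799 probe sets on 20 arrays were deposited by the authors as 1 value per probe set and array, negative values included (29.0% of the values tested). The software, background correction and scaling are not given in the sources consulted. The 59 control probe sets were left out, and 8740 were tested. Of these, 7006 carried 1 gene symbol, 308 several and 1426 none, per the platform annotation. Negative values were raised to 0, and log2 was taken after adding 16, without further scaling. Group means of the 8 groups were fitted with limma 3.58.1 in R 4.3.3 (12 residual degrees of freedom, lmFit and eBayes, Benjamini-Hochberg over 8740 probe sets, threshold 0.05). Figures were drawn with matplotlib 3.10.9 in Python 3.11.15. The number of arrays limits the precision.

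On simulated data 26% and 50% of probe sets changed by 1 and 2 log2 units were recovered in CCI against sham at 14 days, each of 100 among 8740. For 21 against 14 days over all surgeries the shares were 60% and 88%. The changed probe sets were drawn at random from all 8740, bright or dim, with noise independent between arrays and probe sets. These shares therefore do not give the recovery of the members.

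The text names the 6 members with the largest rise and fall past the threshold in each comparison (over all surgeries, those with 1 sign in each surgery), the 3 strongest and 3 weakest signals, and Rplp0, Rpsa, Rpl3, Rps6, Rpl26, Rpl27 and Rps16. Of each gene list it names up to 4 genes past the threshold. Other members, such as Rpl36, Rps10 and further called genes where they fall outside this rule, were named after their values were seen. Members and lists were chosen with earlier results of these data known. The alternatives were 1 or 64 added, quantile normalisation, centring on the median or on bright probe sets, no probe sets of the dimmest tertile, fits without other groups, a block for the replicate number, trended robust eBayes, a gene's probe sets taken by their median, and each array left out. Leaving out both Seltzer 50-day arrays was added after seeing the data.

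A lot batch is named in the labels of 3 CCI arrays alone, by the replicate number, and was not used as a block. Replicate numbers come from the labels. Deviations from group means of same-numbered arrays correlated at 0.299, 0.226 and 0.11 in Seltzer and sham at 21 days, where every pair was over 0.1. The reported p-values do not use the numbers as pairs. They entered only the alternative with a block for the replicate number, which all 8 groups share. In CCI and sham at 21 days the values were 0.0606, 0.0881 and 0.0931.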

Additional observations from a re-analysis of the deposited data

Results flagged for a closer look

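The effect of CCI against sham ganglia differed between 21 and 14 days by limma's test of that difference for 4 ribosomal protein genes. The difference was -2.97 for Rpl27 (adjusted p = 2.02e-05), -1.25 for Rps16 (0.00719), -1.23 for Rpl36 (0.00613) and 1.73 for Rpl5 (0.0409). The effect averaged over both injuries differed between the days for Rpl27, by -1.35 (adjusted p = 0.0122). The other probe set of Rpl27 differed the opposite way, by 0.61 in the CCI effect (0.697) and 0.45 in the effect over both injuries (0.941), and with its probe sets taken by their median the differences were -1.18 (0.0419) and -0.45 (0.814). Rpl27, Rps16 and Rpl36 were higher in CCI than in sham ganglia at 14 days and not called at 21 days. Groups held 2 or 3 arrays, too few to test a single array as an outlier.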

How the results depend on the processing

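Counts are of the 37 members called, beside the count as reported. With arrays centred on their median the counts were 4 rather than 9 (21 against 14 days, all surgeries), 2 rather than 9 (sham), 3 rather than 8 (Seltzer), 3 rather than 7 (CCI against sham, 14 days), 0 rather than 2 (injury against sham), 0 rather than 1 (injury effect between days), 1 rather than 2 (CCI against Seltzer, both days), 8 rather than 18 (sham, 50 against 21 days), 2 rather than 5 (CCI against Seltzer, 14 days) and 1 rather than 4 (CCI effect between days). With this centring the median over all probe sets stood at -0.20 in CCI 21 against 14 days, 0.12 and -0.17 in CCI against sham at 14 and 21 days, -0.34 in Seltzer against sham at 50 days, -0.15 in the injury effect (0.02 without it) and -0.26 in the CCI effect (0.04 without it), and with bright-probe centring at 0.13 at 50 days. With the dimmest probe sets left out the counts were 4 (sham), 4 (Seltzer), 4 (CCI against sham, 14 days), 0 (injury), 0 (injury effect), 1 (CCI against Seltzer, both days), 10 (sham, 50 against 21 days), 3 (CCI against Seltzer, 14 days) and 1 (CCI effect). With only the groups compared, which leaves fewer arrays, they were 3 (sham), 1 (Seltzer), 4 (Seltzer against sham, 50 days), 0 (injury), 1 (CCI against Seltzer, both days), 4 (sham, 50 against 21 days), 9 (CCI against Seltzer, 14 days) and 2 (CCI effect). The injury count of 2 was also 1 with 1 added and 0 with bright-probe centring, a gene's probe sets taken by their median, or no Seltzer 50-day arrays. The injury effect count was 0 with the median over probe sets, and CCI against Seltzer over both days was 5 with quantile normalisation. The cause of these changes in count was not tested.

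With the replicate block the injury count was 0, and the others were 8 (all surgeries), 6 (sham, 21 against 14 days), 5 (CCI against sham, 14 days), 14 (sham, 50 against 21 days) and 3 (CCI effect). The block changed no call of Seltzer against sham at 21 days, where the count stayed at 0. Being shared by all groups, it is not a test of pairs within that comparison.

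Leaving out each array in turn gave 7 to 13 (all surgeries), 4 to 11 (sham), 4 to 9 (Seltzer), 0 to 0 (CCI), 4 to 11 and 0 to 0 (CCI against sham, 14 and 21 days), 0 to 1, 0 to 0 and 4 to 12 (Seltzer against sham, 14, 21 and 50 days), 0 to 3 (injury), 0 to 2 (injury effect), 1 to 5 (CCI against Seltzer, both days), 11 to 21 (sham, 50 against 21 days), 3 to 7 (CCI against Seltzer, 14 days), 3 to 5 (CCI effect) and 0 to 0 (Seltzer effect).

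Of 85 named values 76 were called, and 16 of these calls held in every alternative run. Signs turned for Rpl3 between the days over all surgeries (0.09 with the median over probe sets, and 0.03, 0.04 and 0.03 without CCI, Seltzer or sham 21-day replicate 1; with 1 array left out the range was -0.11 to 0.04), Rpl26 in the same comparison (-0.27, median over probe sets), Rps15 and Rpl6 in Seltzer against sham at 50 days (-0.57 and -0.13, median over probe sets), Rpl27 in sham at 50 against 21 days (0.17, median over probe sets) and Rpsa in injury against sham (-0.05, -0.00 and -0.12 without CCI 21-day replicate 2, Seltzer 21-day replicate 1 or sham 14-day replicate 1; the range was -0.12 to 0.25). The uncalled values of Rpl3 and Rpsa lay near 0. Signal over background limits the Seltzer against sham comparison at 50 days, since 16 and 19 of 37 members were above background on the Seltzer arrays. On the sham 50-day arrays 32 and 33 were above it.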
